A study of Mus musculus with 30 samples.

Results

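The 7 genes described here encode granins and related proteins of the dense-core secretory granule: Chga, Chgb, Scg2, Scg3, Vgf, Ptprn and Ptprn2. They were chosen by name from the 17775 genes of an expression table of sorted mouse islet cells. The table holds 30 bulk RNA-seq libraries in 5 groups, all isolated by fluorescence-activated sorting. Mature alpha-cells of Glucagon-Venus mice aged 3 months gave 8 libraries (alpha). Glucagon-Venus mice that also carried RIP-DTR, a diphtheria toxin receptor driven by the rat insulin promoter, received diphtheria toxin (DT) at 2 months of age and gave 4 alpha-cell libraries 30 days later (alpha DT). The 5 libraries of Pdx1-expressing alpha-cells (alpha Pdx1) came from mice aged 3 months with Glucagon-rtTA, TetO-Cre, R26YFP and CAG-Pdx1. Mice with those same 4 alleles plus RIP-DTR, given the toxin at 2 months, gave 6 libraries 30 days later (alpha Pdx1 DT). Mature beta-cells of Insulin-mCherry mice aged 3 months gave 7 libraries (beta). Both alpha and alpha DT rest on the Venus reporter, whereas the Pdx1 groups rest on the YFP reporter and also carry rtTA and Cre. Pdx1 therefore cannot be told apart from the reporter, rtTA and Cre alleles. RIP-DTR mice without the toxin were not among the groups, so the toxin, RIP-DTR and the loss of beta-cells cannot be told apart. No label ties a library to an animal of its own, and the p-values then measure only how these samples spread, which may be technical.

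Peptide hormones are stored in dense-core granules, which bud from the trans-Golgi network and fuse with the plasma membrane when the cell is stimulated. Granins are acidic proteins that aggregate with the hormones at low pH and high calcium, help to form and load the granule, and are cut into peptides that are released with the hormone. Ptprn (IA-2) and Ptprn2 (phogrin) span the granule membrane, lack ordinary tyrosine phosphatase activity, and are known as autoantigens of type 1 diabetes. Several granin promoters carry a cyclic AMP response element, the site bound by CREB-family factors.

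The promoters are shown because several granin promoters are known to carry that element. RefSeq promoters (GRCm38.p6) were in hand for 6 of the 7 genes. Vgf had no entry. The 250 bases before each start were searched on both strands for the full element TGACGTCA and for its shorter core TGACG, which the full element also contains. The full letters were found before Chgb (chr2:132781559-132781588, plus strand) and Scg2 (chr1:79440076-79440105, minus strand). The core alone was found before Chga (chr12:102554884-102554913, plus strand) and Scg3 (chr9:75684070-75684099, minus strand). Ptprn held 2 cores, at chr1:75264309-75264338 and at chr1:75264272-75264301 on the minus strand, the latter on the strand opposite to the gene. Each window below reads 5′ to 3′ along the gene's strand, with the matched letters in capitals.
Chgb: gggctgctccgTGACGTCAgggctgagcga
Scg2: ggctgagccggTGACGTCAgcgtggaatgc
Chga: gggggcggtcctaTGACGtaatttcctggg
Scg3: agcgctgggtcgcTGACGccatcctcacgc
Ptprn, upstream window: tcttacgccagtaTGACGcaaataggcata
Ptprn, downstream window: ggggtggagatgtCGTCAttgcacgcctgc
Of 27025 genes in the promoter table, 1.77% held the full element and 19.8% the core, against 2 and 5 of the 6 genes here. The element was searched with its presence in granin promoters known, so these shares are a description and not independent evidence. By GENCODE M21 the Chgb and Scg2 windows lie in an exon of a transcript that starts further upstream than the RefSeq start. The Ptprn windows lie in an intron of a longer transcript, and the Chga and Scg3 windows lie outside the annotated gene. A match describes letters and not a bound site, and the lack of one before Ptprn2 says only that these letters were not in its window.

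**Figure D1:**
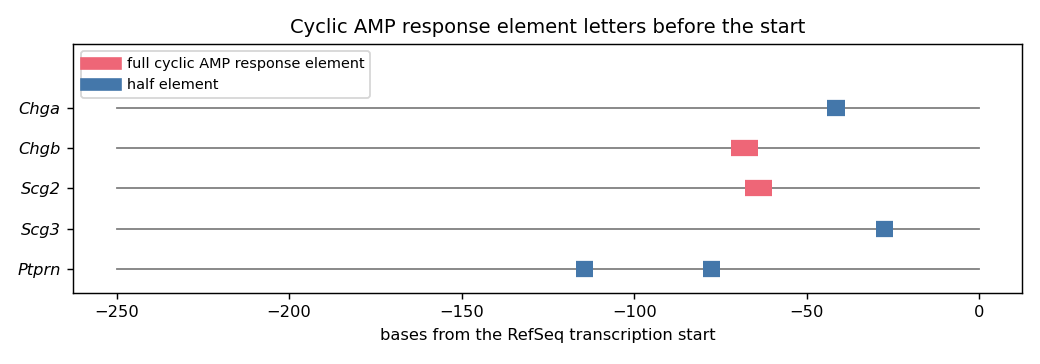
Positions of the cyclic AMP response element letters in the 250 bases before the RefSeq start; the x axis is the distance from the start in bases, pink bars are the full element and blue bars the core alone. The full element lies 72 to 65 bases before the start of Chgb and 68 to 61 bases before that of Scg2, and the cores of Chga, Scg3 and Ptprn lie elsewhere.

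Values are the deposited quantile-normalized log2 values, which run from 0.758 to 22.565 with quartiles of 5.95, 8.55 and 10.37. Quantile normalization gives the same set of values to every library, so a gene near the top takes the value of its rank. Ranks ran from 6 to 30 for Chga, 13 to 91 for Chgb, 6 to 79 for Scg2, 11 to 78 for Scg3, 78 to 606 for Ptprn, 37 to 142 for Ptprn2 and 4925 to 15503 for Vgf. Differences of Chga and Scg2 near their upper end are therefore changes of rank. The table gives no read totals. A rough stand-in for depth, the count of different values under the first quartile, was 32 to 111 per library. All 7 genes passed the filter on low values (at least 5 in at least 4 libraries), which kept 16633 genes. The lowest group median of Vgf, 5.97 in beta, lay near the first quartile, and its lowest beta library was at 4.18.

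Libraries are named by group label plus a number given here in the order of the deposited samples, since the labels carry none. Some libraries went against their labels. Pdx1, the beta-cell transcription factor that was switched on, had a mean of 10.89 in alpha Pdx1, 10.80 in alpha Pdx1 DT, 11.20 in beta, 5.54 in alpha and 5.64 in alpha DT. The library labelled alpha Pdx1 DT 5 had 5.51 and the library labelled alpha Pdx1 5 had 8.61, both low for their groups. The library labelled alpha 8 had a Pdx1 value of 11.23 and an Ins2 value of 19.27, and the libraries labelled beta 1 and beta 5 had Gcg as their top gene. Across genes the library labelled alpha Pdx1 DT 5 had a correlation of 0.993 with the one labelled alpha 4, the highest of 435 pairs, where the next pair reached 0.986, and no granule gene differed between them by more than 0.146. Whether they are 1 library cannot be told from values without counts, so comparisons of alpha with alpha Pdx1 DT may hold 1 sample in both groups. Without alpha 4 the Scg2 difference between those groups was 0.96 (limma adjusted p = 0.0628). Results of some comparisons are therefore also given without beta 1, beta 5, alpha 8, alpha Pdx1 5 and alpha Pdx1 DT 5 (the 5 doubted libraries). Defining markers matched the labels by group median: the mean of 6 alpha markers had a median of 15.47 in alpha and 9.39 in beta, and the mean of 6 beta markers had one of 8.15 in alpha and 15.49 in beta. In bulk samples fewer cells of a type and less RNA per cell cannot be told apart, and this holds for every difference below.

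Chga (chr12:102554969-102565028, plus strand, up to 8 exons, GENCODE M21 on GRCm38 as for all genes below) encodes chromogranin A, a core protein of the granule and the precursor of pancreastatin and vasostatins. Its values were 16.47, 16.28, 16.66 and 15.90 in alpha DT and 16.37, 15.96, 16.28, 16.19 and 15.96 in alpha Pdx1. They ran from 15.66 through a median of 17.15 to 17.68 in alpha, from 16.08 through 16.78 to 16.98 in alpha Pdx1 DT, and from 16.75 through 18.27 to 18.27 in beta. Beta stood highest, and its lowest library still lay above every library of alpha DT and alpha Pdx1. Group means fell from 17.88 ± 0.67 (SD, n = 7) in beta through 16.94 ± 0.67 (n = 8) in alpha, 16.62 ± 0.42 (n = 6) in alpha Pdx1 DT and 16.33 ± 0.33 (n = 4) in alpha DT to 16.15 ± 0.19 (n = 5) in alpha Pdx1. Of the neighbours in that order, only beta and alpha passed the threshold (log2 difference 0.94 ± 0.26 SE, 1.92 times, limma adjusted p = 0.00426). Their libraries overlapped. The next 3 steps had adjusted p-values of 0.469, 0.679 and 0.748. In the Pdx1-expressing alpha-cells without the toxin Chga differed from beta by -1.73 ± 0.29 (limma adjusted p = 2.18e-05), and 5 of 5 libraries lay below all beta libraries.

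Chgb (chr2:132781278-132795079, plus strand, up to 5 exons) encodes chromogranin B, or secretogranin I, which packages cargo in many endocrine cells. Alpha DT libraries held 14.76, 14.52, 16.47 and 15.09, and alpha Pdx1 libraries held 16.75, 16.90, 16.37, 16.75 and 16.08. The range was 14.99 to 16.90 with a median of 15.98 in alpha, 15.66 to 16.14 with a median of 15.96 in alpha Pdx1 DT, and 15.79 to 16.75 with a median of 16.47 in beta. A single alpha DT library, at 16.47, stood far above the other 3. Means were 16.57 ± 0.34 (SD) in alpha Pdx1, 16.38 ± 0.37 in beta, 15.97 ± 0.53 in alpha, 15.93 ± 0.18 in alpha Pdx1 DT and 15.21 ± 0.87 in alpha DT. No neighbours in that order differed past the threshold (limma adjusted p from 0.175 to 0.931). The ends did: Chgb was 1.36 ± 0.30 higher in alpha Pdx1 than in alpha DT (2.56 times, limma adjusted p = 0.00240).

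Scg2 (chr1:79434669-79440120, minus strand, up to 3 exons) encodes secretogranin II, the precursor of secretoneurin. Among alpha libraries it ran from 14.66 through a median of 15.40 to 16.66, the highest being the library labelled alpha 8, which also carried the high Pdx1 and Ins2. The alpha DT libraries had 15.32, 15.57, 15.75 and 16.28. The alpha Pdx1 libraries had 16.56, 18.27, 16.90, 17.09 and 16.75, so 4 of 5 exceeded every alpha library and the fifth fell below only alpha 8. Alpha Pdx1 DT ran from 15.62 through 16.42 to 16.90, and beta from 16.11 through 17.47 to 17.92. In order the means were 17.26 ± 0.68 (SD) in beta, 17.11 ± 0.68 in alpha Pdx1, 16.35 ± 0.44 in alpha Pdx1 DT, 15.73 ± 0.41 in alpha DT and 15.41 ± 0.60 in alpha. Each step between neighbours stayed short of the threshold (limma adjusted p from 0.130 to 0.752), yet Scg2 spanned 1.85 from end to end. It was 1.70 ± 0.31 higher in alpha Pdx1 than in alpha (3.25 times, limma adjusted p = 0.00239), and 0.94 ± 0.29 higher in alpha Pdx1 DT than in alpha (1.91 times, adjusted p = 0.0454). Alpha Pdx1 and beta differed by -0.15, with an interval from -0.80 to 0.50, which does not show that they are alike.

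Scg3 (chr9:75643189-75684056, minus strand, up to 12 exons) encodes secretogranin III, which binds chromogranin A and cholesterol-rich granule membrane. The 4 alpha DT values were 14.67, 14.97, 14.99 and 14.74, and all lay below the lowest alpha library at 15.05. The alpha Pdx1 values were 15.64, 16.66, 16.52, 16.47 and 16.28. Alpha had a median of 15.82 and a highest value of 16.19, alpha Pdx1 DT ran from 15.57 through 15.86 to 16.19, and beta from 15.75 through 16.98 to 17.09. Alpha DT thus overlapped with no other group. The order was 16.66 ± 0.55 (SD) in beta, 16.31 ± 0.40 in alpha Pdx1, 15.86 ± 0.22 in alpha Pdx1 DT, 15.72 ± 0.49 in alpha and 14.84 ± 0.16 in alpha DT. Only the last step passed the test, a difference of -0.87 ± 0.24 (0.545 times, limma adjusted p = 0.0401). The other steps had adjusted p-values of 0.253, 0.226 and 0.702.

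Vgf (chr5:137026392-137033351, plus strand, up to 5 exons) encodes a granin-like protein that neurons and endocrine cells induce with neurotrophins and cut into signalling peptides. Its values in alpha DT were 10.17, 10.01, 9.49 and 8.99, every one above the alpha range of 6.26 to 7.84 with its median of 7.39. In alpha Pdx1 they were 5.90, 6.996, 7.79, 6.31 and 7.23. Alpha Pdx1 DT spread widely, from 7.03 through 8.06 to 9.25, and beta from 4.18 through 5.97 to 6.94. Alpha DT overlapped only with alpha Pdx1 DT, and alpha Pdx1 DT overlapped with every group but beta. Means were 9.67 ± 0.54 (SD) in alpha DT, 8.13 ± 0.91 in alpha Pdx1 DT, 7.31 ± 0.52 in alpha, 6.84 ± 0.75 in alpha Pdx1 and 5.78 ± 0.96 in beta. Neighbours in the order did not pass the threshold (limma adjusted p = 0.0785, 0.180, 0.628 and 0.0557), whereas alpha DT lay 2.36 ± 0.45 above alpha (5.14 times, adjusted p = 0.00371) and 3.88 ± 0.46 above beta (14.7 times, adjusted p = 7.89e-08). Vgf was the 1 granule gene whose level was lowest in beta. Its beta values were low in the table, and differences from them moved with the processing. Over the alternatives other than leaving out 1 library, alpha DT against beta ran from 3.22 to 4.29. Beta against alpha ran from -1.87 to -1.08.

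Ptprn (chr1:75247027-75264502, minus strand, up to 23 exons) and Ptprn2 (chr12:116485720-117276849, plus strand, up to 23 exons) encode the paired membrane proteins of the granule. Exons of Ptprn overlap the antisense gene Gm28294 and exons of Ptprn2 overlap the antisense gene Gm5441. Whether counting used strand is not given in the sources used here, so reads from each pair cannot be told apart. For Ptprn, alpha DT held 13.86, 14.09, 13.74 and 12.87 and alpha Pdx1 held 14.00, 13.79, 13.77, 13.64 and 13.16. It ran from 12.87 through 13.20 to 14.04 in alpha, from 13.25 through 14.42 to 14.67 in alpha Pdx1 DT and from 13.67 through 13.94 to 14.63 in beta. All pairs of groups overlapped. The means were 14.20 ± 0.52 (SD) in alpha Pdx1 DT, 14.01 ± 0.33 in beta, 13.67 ± 0.31 in alpha Pdx1, 13.64 ± 0.53 in alpha DT and 13.35 ± 0.39 in alpha. No neighbours differed past the threshold (limma adjusted p from 0.272 to 0.943), while Ptprn was higher than in alpha in both alpha Pdx1 DT (0.84 ± 0.21, 1.79 times, adjusted p = 0.0169) and beta (0.65 ± 0.20, 1.57 times, adjusted p = 0.0115).

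Ptprn2 varied least, its group means spanning 0.60 on the log2 scale. It held 14.48, 14.89, 14.59 and 14.32 in alpha DT and 15.02, 15.25, 15.32, 15.16 and 15.08 in alpha Pdx1, and these groups did not overlap. Alpha ran from 14.15 through 15.05 to 15.37, alpha Pdx1 DT from 14.56 through 14.92 to 15.25, and beta from 14.74 through 15.16 to 15.40. The means were 15.17 ± 0.12 (SD) in alpha Pdx1, 15.13 ± 0.23 in beta, 15.002 ± 0.37 in alpha, 14.91 ± 0.26 in alpha Pdx1 DT and 14.57 ± 0.24 in alpha DT. Neighbours did not differ past the threshold (limma adjusted p from 0.340 to 0.893). Alpha Pdx1 exceeded alpha DT by 0.60 ± 0.19 (1.51 times, limma adjusted p = 0.0280).

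**Figure D2:**
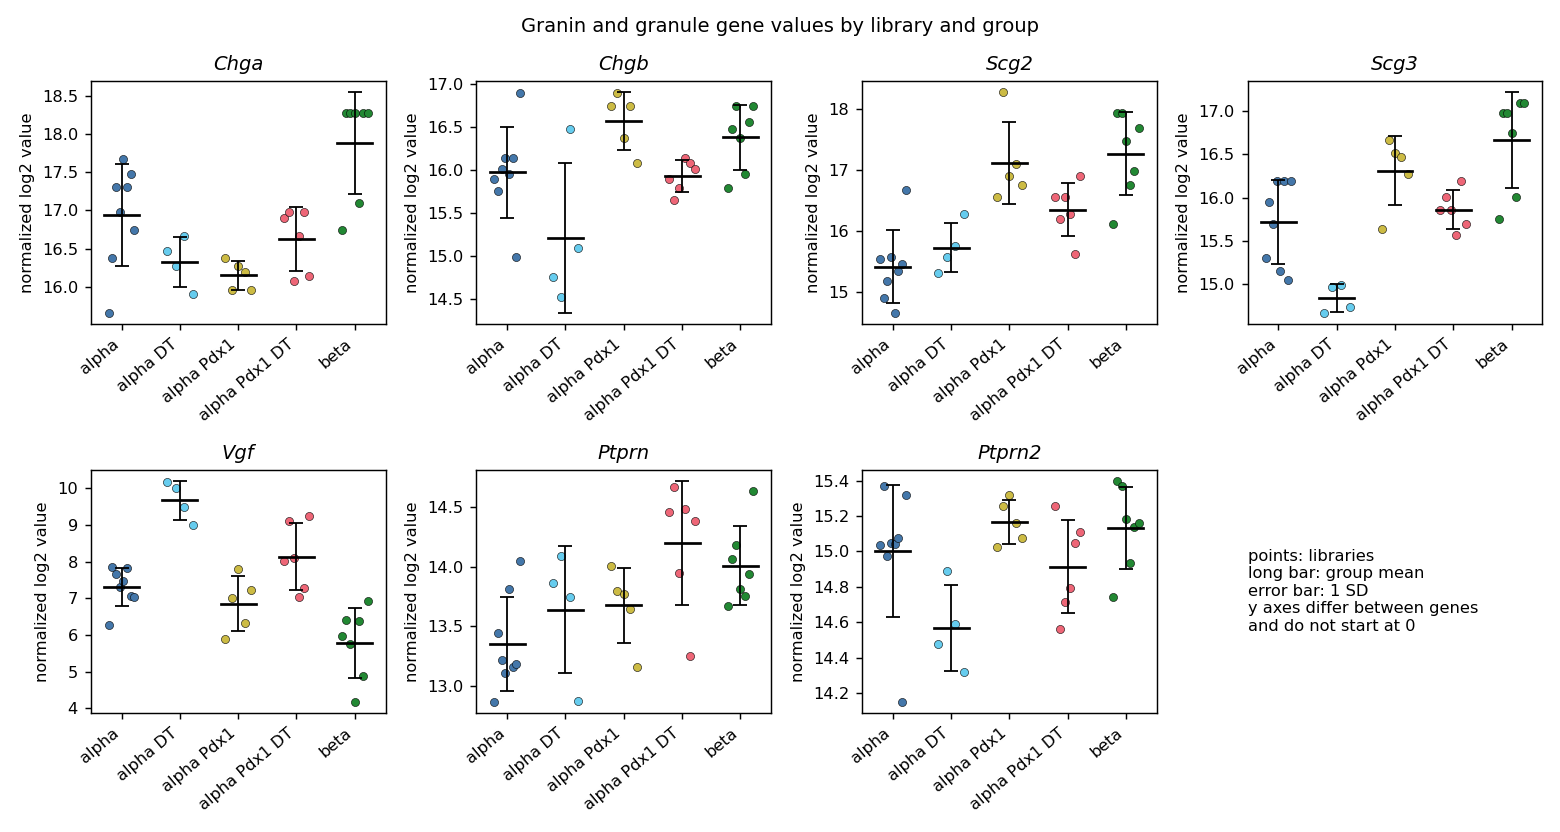
Normalized log2 value of each granule gene (y axis, a separate scale per panel that does not start at 0) in each library, by group; points are libraries, long bars are group means and error bars are 1 SD. Vgf is highest in the 4 alpha DT libraries (8.99 to 10.17), where Scg3 is lowest (14.67 to 14.99), and Scg2 is highest in beta and alpha Pdx1.

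Beta-cells against alpha-cells asked how the granule genes differ between the 2 mature cell types. In beta Chga, Scg2, Scg3 and Ptprn were higher and Vgf was lower, so 5 of 7 genes were called where 34.5% of all genes tested were called. Scg2 led, at 1.85 ± 0.28 (3.60 times, limma adjusted p = 4.32e-06), and 6 of 7 beta libraries lay above every alpha library. Scg3 was 0.95 ± 0.21 higher (1.93 times, limma adjusted p = 0.000451). Vgf was lower, with a difference of -1.52 ± 0.38 (0.349 times, limma adjusted p = 0.00197), and 7 of 7 beta libraries lay below the alpha mean. Chgb (0.41 ± 0.23, limma adjusted p = 0.175) and Ptprn2 (0.13 ± 0.15, limma adjusted p = 0.529, interval -0.17 to 0.43) were not called. The median difference was 0.65 over the 7 genes and 0.00 over all genes. Without the 5 doubted libraries Chgb also passed (0.74, limma adjusted p = 0.0121) and Scg2 differed by 2.36. Of 6 alpha markers 6 were lower in beta, and of 6 beta markers 6 were higher. Of the other markers 2 of 2 PP-cell, 2 of 3 mesenchymal, 1 of 3 delta-cell and 1 of 3 duct were lower. No leukocyte (median 1.85), acinar or endothelial marker was called. The part of these markers in the 5 differences was not tested.

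Alpha-cells after beta-cell ablation against untreated alpha-cells asked what the toxin, RIP-DTR and loss of the neighbouring beta-cells together go along with. Vgf rose (2.36 ± 0.45) and Scg3 fell by 0.87, and neither gene overlapped between the groups: 4 of 4 alpha DT libraries were beyond all 8 alpha libraries. These 2 of 7 calls stand against 3.26% of all genes, and the share of all genes without overlap was not computed. Chgb had a difference of -0.76 ± 0.27 (limma adjusted p = 0.107), Chga of -0.61 ± 0.30 (0.253), Ptprn2 of -0.43 ± 0.17 (0.148), Scg2 of 0.32 ± 0.33 (0.636) and Ptprn of 0.29 ± 0.24 (0.536). Over the 7 genes the median difference was -0.43, against -0.06 over all genes. The Scg3 call was lost without any 1 of the libraries alpha 2, 3, 4, 6 and 8 or alpha DT 1, 2 and 4, with limma adjusted p-values from 0.0544 to 0.0853. It was also lost with no trend and no robust variances (0.0637), with the Rn18s-rs5 level in the model (0.0867), with library weights (0.0863) and in a fit of these 2 groups alone (0.129). Leaving out alpha DT 3 brought Chgb past the threshold at -1.18 (limma adjusted p = 0.00954), and leaving out alpha 7 did so for Chgb (-0.90, 0.0397) and Ptprn2 (-0.56, 0.0302). Vgf held its call without each library in turn and lost it only with library weights (limma adjusted p = 0.0704).

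Leukocyte markers were higher in alpha DT than in alpha. The mean of 6 leukocyte markers (Ptprc, Cd68, Lyz2, Tyrobp, Csf1r, Cd74) was 4.86 to 7.84 in alpha libraries and 8.14 to 12.02 in alpha DT libraries, and 3 of 6 rose. Their mean was 5.23 to 11.53 in alpha Pdx1 DT, 4.53 to 6.13 in alpha Pdx1 and 6.53 to 11.55 in beta. The mean of 6 acinar markers was 6.54 to 13.38 in alpha and 8.07 to 14.71 in alpha DT, with 0 of 6 called. That of 3 delta-cell markers was 10.81 to 12.11 in alpha and 11.39 to 13.63 in alpha DT, again with 0 of 3 called. None of the 6 alpha, 6 beta, 2 PP-cell, 3 duct, 1 endothelial and 3 mesenchymal markers tested was called by limma in this comparison. No marker is listed at 0, because the lowest value of the table is 0.758. Their part in the Vgf and Scg3 differences was not tested.

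Pdx1-expressing against untreated alpha-cells asked how these cells differ without the toxin. Pdx1 came together with the reporter, rtTA and Cre alleles and cannot be told apart from them. Scg2 rose 3.25 times, and no other granule gene was called: 1 of 7, where 4.33% of all genes were called. Chgb had 0.60 ± 0.25 (limma adjusted p = 0.193), Scg3 0.60 ± 0.23 (0.135), Ptprn 0.32 ± 0.22 (0.501), Ptprn2 0.16 ± 0.16 (0.664), Vgf -0.46 ± 0.42 (0.628) and Chga -0.79 ± 0.28 (0.110). All 5 alpha Pdx1 libraries lay above the alpha mean of Chgb and of Scg2 and below that of Chga. The members' median was 0.32, against 0.03 over all genes. Without the 5 doubted libraries Scg2 differed by 1.97 (limma adjusted p = 1.54e-06), and Chgb (0.85, 0.0273) and Scg3 (0.67, 0.0406) passed as well. Leaving out alpha 1 alone brought Chga past the threshold (-0.97, limma adjusted p = 0.0185), and leaving out alpha Pdx1 1 did so for Scg3 (0.77, 0.0483). The mean of 6 beta markers was 6.44 to 10.06 in alpha and 8.66 to 9.98 in alpha Pdx1, with 1 of 6 called. That of the 2 PP-cell markers Ppy and Pyy was 15.56 to 20.12 and 16.90 to 19.94, with 0 of 2 called. The library labelled alpha 8 gave both alpha maxima, and the next alpha values were 8.57 and 18.28. Both alpha Pdx1 minima were those of alpha Pdx1 5. The part of these markers in the Scg2 difference was not tested.

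With Pdx1 and the toxin together, against untreated alpha-cells, Scg2 and Ptprn rose and none fell: 2 of 7, where 7.81% of all genes were called. Vgf had 0.82 ± 0.40 (limma adjusted p = 0.180), with 4 of 6 libraries above every alpha library. Chga, Chgb, Scg3 and Ptprn2 had differences of -0.32, -0.04, 0.15 and -0.09 (limma adjusted p from 0.469 to 0.931). The members' median was 0.15, against -0.03 over all genes. The Scg2 call was the least firm of those made: it was lost in 16 of 30 fits that left out 1 library, 7 of them alpha (1 to 7), 5 alpha Pdx1 DT (1, 2, 3, 4 and 6), 2 alpha Pdx1 (3 and 4) and 2 beta (4 and 6), with limma adjusted p-values from 0.0506 to 0.126. Ptprn was lost without alpha Pdx1 DT 4 (0.05004) or 6 (0.0532). Without the 5 doubted libraries both were larger, Scg2 at 1.26 (limma adjusted p = 0.000264) and Ptprn at 1.13 (6.66e-05). Of 6 beta markers 2 were higher in alpha Pdx1 DT than in alpha (median 0.83, library means of 6.51 to 10.56 against 6.44 to 10.06) and of 6 alpha markers 1 was lower (median -1.02, 13.63 to 15.62 against 14.18 to 15.62). The doubted library alpha Pdx1 DT 5 gave the 6.51 and its group's 15.62, where the next values were 9.93 and 14.37. The doubted library alpha 8 gave the 10.06 and the 14.18, where the next were 8.57 and 15.16. The 6 leukocyte markers had a median difference of 1.99 with 0 called by limma, and none of the other markers was called. Their part in the Scg2 and Ptprn differences was not tested. These 4 comparisons share the alpha libraries, so their values stand side by side and are not independent of one another.

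**Figure D3:**
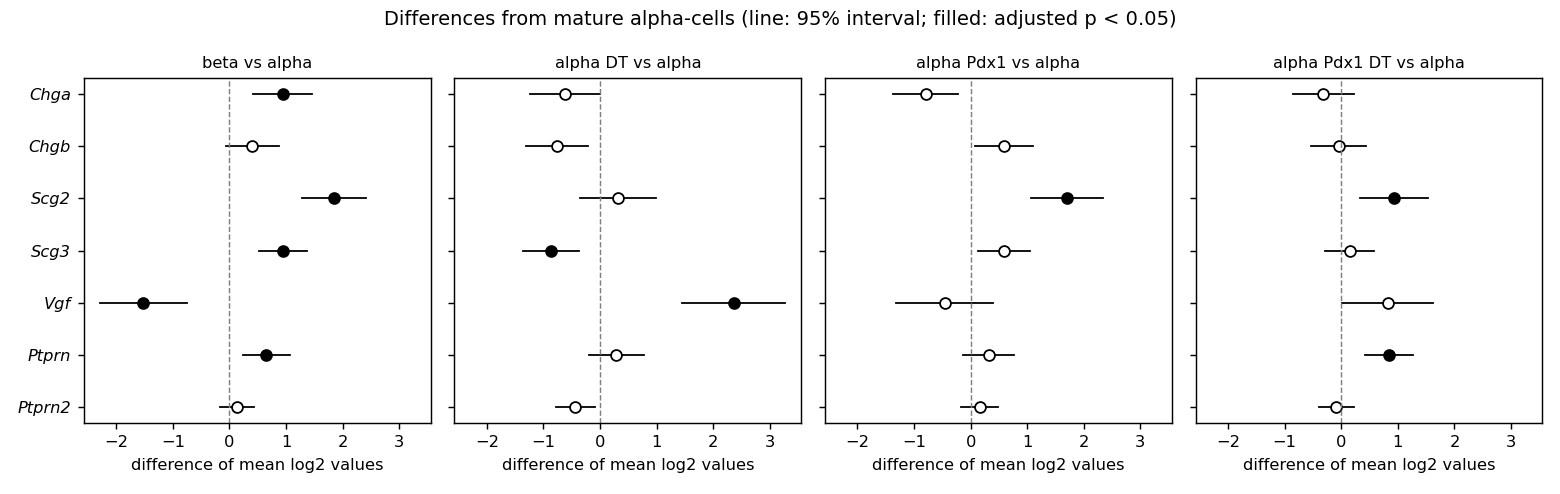
Difference of group means from mature alpha-cells (x axis, log2) for each granule gene in the other 4 groups, 1 panel each; points are limma estimates, lines are 95% intervals and filled points have an adjusted p under 0.05. Scg2 is to the right of 0 and filled in 3 of the 4 panels, and Vgf is filled to the left in beta (-1.52) and to the right in alpha DT (2.36).

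Toxin-treated against untreated Pdx1-expressing cells (alpha Pdx1 DT against alpha Pdx1) gave 0 of 7 calls by limma, where 9.22% of all genes were called. Of all 16633 genes tested 4439 had an unadjusted limma p under 0.05, beside 4 of the 7 granule genes. Those were Vgf (1.28 ± 0.44, limma adjusted p = 0.0611), Chgb (-0.64 ± 0.27, 0.117), Scg2 (-0.76 ± 0.33, 0.130) and Ptprn (0.52 ± 0.24, 0.149). Every alpha Pdx1 DT library lay above the alpha Pdx1 mean of Vgf and below that of Chgb and Scg2. Vgf passed without alpha Pdx1 3 (1.52, limma adjusted p = 0.0485), alpha Pdx1 DT 4 (1.502, 0.0428), alpha Pdx1 DT 5 (1.45, 0.0293) or beta 4 (0.0470), and Ptprn passed without alpha Pdx1 DT 5 (0.71, 0.0282). Chga (0.47), Scg3 (-0.45) and Ptprn2 (-0.25) were not called, and the members' median was -0.25, against -0.06 over all genes. Of 6 leukocyte markers 2 were higher in alpha Pdx1 DT (median 3.06), and none of the other markers was called. The 6 acinar markers had a median difference of 3.59. The part of the markers in these differences was not tested.

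Rn18s-rs5, a ribosomal RNA transcript, also differed between these groups, with a mean of 17.31 ± 0.56 (SD, n = 5) in alpha Pdx1 and 20.99 ± 1.25 (n = 6) in alpha Pdx1 DT, with no overlap. It was 19.29 in alpha, 20.06 in alpha DT and 19.70 in beta. With its level as a covariate the Scg2 difference between alpha Pdx1 and alpha was 1.80 (limma adjusted p = 0.0438), while the Scg2 and Ptprn differences between alpha Pdx1 DT and alpha were 0.85 (0.343) and 0.74 (0.243). Between alpha Pdx1 DT and alpha Pdx1 the covariate took the genes called from 1534 to 0. There Vgf had 0.72, Ptprn 0.31, Chgb -0.30, Scg2 -0.94 and Scg3 -0.09, and Chga (-0.20) and Ptprn2 (0.14) turned in sign (limma adjusted p from 0.995 to 0.998). Because Rn18s-rs5 did not overlap between alpha Pdx1 and alpha Pdx1 DT, this fit cannot part group from covariate. No conclusion is drawn from its lost calls.

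The comparison of Pdx1-expressing with other alpha-cells in toxin-treated mice (alpha Pdx1 DT against alpha DT) showed 1 of 7 genes called, against 2.10% of all genes. Scg3 was 1.02 ± 0.26 higher (2.03 times, limma adjusted p = 0.0310), with 6 of 6 alpha Pdx1 DT libraries above every alpha DT library. Vgf had -1.54 ± 0.47 (limma adjusted p = 0.0785), and all 6 libraries lay below the alpha DT mean. The others had differences of 0.72 for Chgb, 0.62 for Scg2, 0.56 for Ptprn, 0.35 for Ptprn2 and 0.29 for Chga (limma adjusted p from 0.181 to 0.679). Their median difference was 0.56, against 0.00 over all genes. The Scg3 call was lost without alpha DT 1, alpha DT 3, alpha Pdx1 DT 1 or alpha Pdx1 DT 2 (limma adjusted p from 0.0543 to 0.0647). Chgb passed without alpha DT 3 (1.14, 0.0269), Vgf without alpha DT 4 (-1.77, 0.0486) and Ptprn without the 5 doubted libraries (0.75, 0.0317). Of 6 beta markers 1 was higher in alpha Pdx1 DT, and none of the other markers was called. The 6 leukocyte markers had a median difference of -1.69. The part of the markers in the Scg3 difference was not tested.

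Pdx1-expressing alpha-cells without the toxin, set against toxin-treated ones without Pdx1 (alpha Pdx1 against alpha DT), gave 5 of 7 calls, where 17.0% of all genes were called. Scg3 (1.47 ± 0.27, 2.77 times), Scg2 (1.38 ± 0.36, 2.61 times), Chgb (1.36 ± 0.30) and Ptprn2 (0.60 ± 0.19) were higher in alpha Pdx1, and Vgf was lower (-2.82 ± 0.49, 0.141 times). Their limma adjusted p-values were 0.000483, 0.00983, 0.00240, 0.0280 and 0.000338. Scg2, Scg3, Vgf and Ptprn2 did not overlap between the groups, and the share of all genes without overlap was not computed. Chga (-0.18) and Ptprn (0.03) were not called. Across the 7 the median was 0.60, against 0.08 over all genes. With Rn18s-rs5 as a covariate none of the 5 kept its call by limma: Vgf had -2.40 (adjusted p = 0.0514), Scg3 1.20 (0.0675), Scg2 1.52 (0.103), Chgb 1.10 (0.144) and Ptprn2 0.30 (0.567). Rn18s-rs5 itself ran from 16.90 to 18.27 in alpha Pdx1 and from 19.27 to 20.54 in alpha DT. Without overlap this fit cannot part the group difference from the covariate, and no conclusion is drawn from the lost calls. Ptprn2 also lost its call without alpha DT 1 or 4 or alpha Pdx1 2 or 3 (0.0600 to 0.0697). The leukocyte means of the groups did not overlap either (4.53 to 6.13 against 8.14 to 12.02), with 3 of 6 markers lower in alpha Pdx1 and a median difference of -4.51. Of 6 acinar markers 2 were lower (median -5.19), and of 6 beta markers 3 were higher (median 2.35). The 1 endothelial marker, 1 of 3 duct and 1 of 6 alpha markers were lower, 1 of 3 mesenchymal markers was higher, and 0 of 3 delta-cell and 0 of 2 PP-cell markers were called by limma. The part of these markers in the 5 differences was not tested.

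Each alpha-cell group was also set beside beta-cells. In alpha DT 6 of 7 genes were called, 1 higher and 5 lower, where 30.1% of all genes were called. Vgf was 14.7 times higher, and Scg3 (-1.82 ± 0.25, limma adjusted p = 9.36e-07), Chga (-1.56 ± 0.31, 0.000242), Scg2 (-1.53 ± 0.34, 0.000855), Chgb (-1.17 ± 0.28, 0.00157) and Ptprn2 (-0.56 ± 0.18, 0.0150) were lower. Ptprn (-0.37 ± 0.25, 0.272) was not called, and Ptprn2 lost its call without alpha DT 4 (limma adjusted p = 0.0560). Over the 7 genes the median was -1.17, against -0.04 over all genes. Of the markers 6 of 6 alpha, 2 of 2 PP-cell, 2 of 3 delta-cell, 1 of 3 mesenchymal and 1 of 3 duct were higher in alpha DT. Lower were 6 of 6 beta and 1 of 3 duct markers. No leukocyte (median 1.95), acinar or endothelial marker was called. The part of the markers in these differences was not tested.

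In alpha Pdx1 against beta 1 of 7 genes was called, where 32.9% of all genes were called. This was Chga, at 0.301 times the beta value. Vgf had 1.06 ± 0.43 (limma adjusted p = 0.0557), and it passed without any 1 of alpha Pdx1 1, alpha Pdx1 DT 4, alpha Pdx1 DT 6, beta 2, beta 5 or beta 7 (0.0256 to 0.0490). Chgb had 0.19 (interval -0.34 to 0.72), Scg3 -0.35 (-0.82 to 0.12), Ptprn -0.33 (-0.80 to 0.13) and Ptprn2 0.03 (-0.30 to 0.37). Scg3 passed without the 5 doubted libraries (-0.66, limma adjusted p = 0.0247). The members' median was -0.15, against 0.02 over all genes. Leukocyte markers were lower in alpha Pdx1, 4 of 6 with a median of -3.08, and their library means did not overlap (4.53 to 6.13 against 6.53 to 11.55). Of 6 acinar markers 1 was lower (median -3.59), as were the 1 endothelial marker and 2 of 3 duct markers, while 1 duct, 2 of 3 mesenchymal, 2 of 2 PP-cell and 1 of 3 delta-cell markers were higher. Of the alpha markers 5 of 6 were higher and of the beta markers 5 of 6 lower. Their part in the Chga difference was not tested.

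Against beta, 4 of 7 genes were called in alpha Pdx1 DT, where 26.3% of all genes were called. Vgf was higher (2.34 ± 0.41, 5.07 times, limma adjusted p = 3.94e-05), with 6 of 6 libraries above every beta library. Chga (-1.26 ± 0.27, 0.000741), Scg2 (-0.91 ± 0.30, 0.0239) and Scg3 (-0.80 ± 0.22, 0.00638) were lower. Chgb (-0.45 ± 0.25, 0.187), Ptprn2 (-0.22 ± 0.16, 0.337) and Ptprn (0.19 ± 0.22, 0.573) were not called, though Chgb passed without the 5 doubted libraries (-0.68, limma adjusted p = 0.0394). Scg2 lost its call without alpha Pdx1 DT 5, beta 2, beta 3 or beta 7 (0.0519 to 0.0672). The members' median was -0.45, against -0.04 over all genes. Of the markers 5 of 6 alpha, 2 of 2 PP-cell, 1 of 3 delta-cell and 1 of 3 mesenchymal were higher in alpha Pdx1 DT. Lower were 6 of 6 beta markers, and none of the others was called. The part of the markers in these differences was not tested. These 3 comparisons share the beta libraries.

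**Figure D4:**
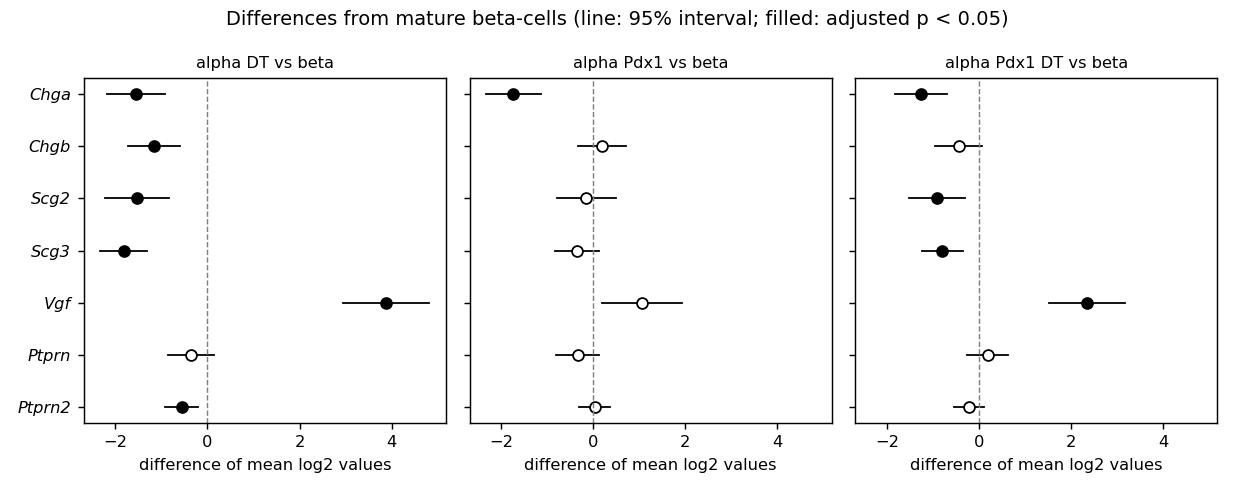
Difference of group means from mature beta-cells (x axis, log2) for each granule gene in the 3 manipulated groups, 1 panel each; points are limma estimates, lines are 95% intervals and filled points have an adjusted p under 0.05. Chga is filled to the left of 0 in all 3 panels (-1.56, -1.73 and -1.26), and Vgf is filled to the right in alpha DT (3.88) and alpha Pdx1 DT (2.34).

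The interaction term tested whether the difference between toxin-treated and untreated groups was unequal with and without Pdx1. By limma 0 of 7 granule genes were called, where 0.00% of all genes (0 of 16633) were called, and 1527 genes had an unadjusted p under 0.05. Chga (1.08 ± 0.43, limma adjusted p = 0.454) and Scg2 (-1.08 ± 0.47, 0.498) were the 2 members with an unadjusted p under 0.05. For Chga the toxin difference was -0.61 without Pdx1 and 0.47 with it. For Scg2 it was 0.32 without Pdx1 and -0.76 with it. Vgf, at 2.36 without Pdx1 and 1.28 with it, had an interaction of -1.08 ± 0.63 (limma adjusted p = 0.614). The passing of the threshold by Vgf without Pdx1 and not with it therefore does not show that these differences are unequal.

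Plotted against each other, Scg2 and Vgf placed alpha Pdx1 and beta at high Scg2 and low Vgf, with overlapping ranges of both genes. Alpha lay at Scg2 of 14.66 to 16.66 and Vgf of 6.26 to 7.84, and its ranges overlapped those of alpha Pdx1 DT (15.62 to 16.90 and 7.03 to 9.25). Alpha DT lay at Scg2 of 15.32 to 16.28 and Vgf of 8.99 to 10.17, which overlapped alpha Pdx1 DT in both genes. The correlation over all 30 libraries was -0.44, and over deviations from group means it was 0.01. Both are descriptions over libraries that share groups and normalization.

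**Figure D5:**
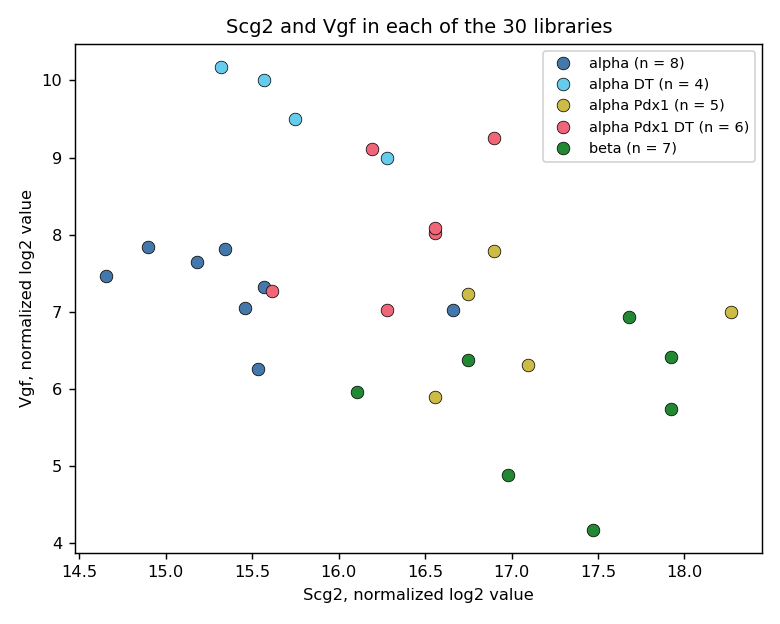
Normalized log2 value of Scg2 (x axis) against Vgf (y axis) in each of the 30 libraries, coloured by group. The 4 alpha DT libraries have Vgf of 8.99 to 10.17, and the 5 alpha Pdx1 libraries have Scg2 of 16.56 to 18.27.

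Within groups the granule genes varied together only in part. Over deviations from group means in the 30 libraries, Scg3 and Ptprn2 had the highest correlation (r = 0.60), followed by Scg2 with Scg3 and Chgb with Scg3 (both 0.51), and Chgb with Vgf the lowest (-0.19). By Pearson r over all 30 libraries, which share groups, normalization and depth, the nearest genes were Prkca (0.907), Rwdd1 (0.888) and Prepl (0.865) for Scg3, and Gaa (0.897), Rcan3 (0.875) and Zfhx2 (0.856) for Ptprn. Stard10 (0.872), Sars (0.871) and Atg13 (0.865) were nearest to Chga, and Tjp1 (0.869), Trim39 (0.817) and Cwc22 (0.805) to Chgb. Scg2 was most like Papss2 (0.865), B830017H08Rik (0.859) and Kcnip1 (0.856). Papss2 had means of 10.06 in alpha, 9.90 in alpha DT, 13.11 in alpha Pdx1, 12.26 in alpha Pdx1 DT and 15.52 in beta. Vgf was most like Gm3511 (0.851), Fam3c (0.839) and Rpl35a (0.797), and Ptprn2 like AI314180 (0.812), Prepl (0.806) and Tspyl4 (0.794).

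Other proteins carried in the granule moved in both directions. Of 10 such genes 9 were tested, and Nppa was not. In beta against alpha 4 rose and 3 fell, where 34.5% of all genes were called: Ucn3, the urocortin of mature beta-cells, rose 8.53 ± 0.76, Npy rose 5.54 ± 0.74 and Iapp, which encodes amylin, rose 4.99 ± 0.81 on the log2 scale (limma adjusted p = 1.11e-09, 5.06e-07 and 2.49e-05). Nucb2, the precursor of nesfatin-1, rose 0.97 ± 0.19. Resp18 (-2.15 ± 0.33), Scg5, the chaperone of Pcsk2 (-2.11 ± 0.16), and Pcsk1n, the Pcsk1 inhibitor proSAAS (-1.56 ± 0.24), were lower. In alpha Pdx1 against alpha 1 rose and 2 fell (4.33% of all genes were called): Iapp at 4.91 ± 0.89 (limma adjusted p = 0.00297), Pcsk1n at -0.89 ± 0.27 (0.0475) and Scg5 at -0.64 ± 0.18 (0.0307). In alpha Pdx1 DT against alpha Iapp (3.32 ± 0.85) and Npy (2.99 ± 0.77) rose and Scg5 fell by 0.58, and in alpha DT against alpha Npy alone was called (4.51 ± 0.88, limma adjusted p = 0.00522). In the last 2 comparisons 7.81% and 3.26% of all genes were called. The list's median differences were 0.84 in beta, 0.17 in alpha DT, -0.23 in alpha Pdx1 and 0.42 in alpha Pdx1 DT. Npy, like Vgf, was called in alpha DT, where its mean was 7.99 against 3.47 in alpha. Its means in alpha and in alpha Pdx1 (2.61) lay below the filter value of 5 and the first quartile of 5.95. The sizes of its differences from alpha therefore rest on low values.

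Of 9 enzymes that cut and modify prohormones, 3 rose and 4 fell in beta against alpha, where 34.5% of all genes were called. Pcsk1, the convertase that processes proinsulin, was 7.44 ± 0.47 higher in beta (limma adjusted p = 1.46e-13). Qpct, which forms pyroglutamate, was lower (-2.40 ± 0.42), as was Cpe, the carboxypeptidase that trims convertase products (-1.70 ± 0.45, 0.00402). None of 9 was called by limma in alpha DT or in alpha Pdx1 against alpha, where Pam (0.37, adjusted p = 0.334) and Cpd (0.27, 0.423) had the lowest adjusted p-values in alpha Pdx1. Cpe was lower in alpha Pdx1 DT than in alpha (-1.83 ± 0.47, limma adjusted p = 0.0201) and none rose. All genes were called at 3.26%, 4.33% and 7.81% in these 3 comparisons. Medians over the 9 in the same order of groups were -0.35, -0.14, 0.31 and 0.19.

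Of 24 genes of granule biogenesis and granule membrane 22 were tested, Ccdc186 and Eipr1 were not, and 9 rose and none fell in beta against alpha, beside 34.5% of all genes called. Sytl4 (granuphilin, which tethers granules to the plasma membrane) was 8.07 ± 0.50 higher (limma adjusted p = 7.14e-14), Ica1l 2.04 ± 0.25 and Slc18a1, a vesicular monoamine transporter, 1.87 ± 0.39. In alpha DT 0 of 22 were called by limma. In alpha Pdx1 only Atp6ap2, an accessory protein of the vacuolar proton pump, was called (0.84 ± 0.25, limma adjusted p = 0.0480). The granule GTPases Rab3a (0.96 ± 0.24, 0.0152) and Rab27a (0.71 ± 0.21, 0.0349) rose in alpha Pdx1 DT and Ica1 fell by 0.70 (0.0336). The shares of all genes called were 3.26% in alpha DT, 4.33% in alpha Pdx1 and 7.81% in alpha Pdx1 DT. The 4 medians were 0.36, 0.17, 0.02 and -0.01.

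Of 15 regulators tested, 2 rose and 3 fell in beta against alpha, a share near the 34.5% of all genes called. Rest, the repressor of neuronal and endocrine genes, was low in both (4.30 against 5.91, difference -1.60 ± 0.48, limma adjusted p = 0.00921). Isl1 was lower (-1.23 ± 0.24, 0.000147) and Insm1 higher (1.20 ± 0.46, 0.0452). In alpha DT Nkx2-2 rose (1.03 ± 0.25, limma adjusted p = 0.0196) and Rcor1, a partner of Rest, fell by 0.92 (0.00758). None of 15 was called by limma in alpha Pdx1, where Rcor2 (-1.08, 0.0795) and Nkx2-2 (-0.60, 0.144) came nearest, or in alpha Pdx1 DT, where Hdac1 (0.54, 0.0600) and Neurod1 (-0.69, 0.0695) did. Among all genes 3.26%, 4.33% and 7.81% were called in these 3 comparisons. The 4 medians were -0.07, -0.22, -0.07 and -0.06. Over all genes the medians of these 4 comparisons were 0.00, -0.06, 0.03 and -0.03.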

How the data were processed

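RNA came from sorted islet cells, was purified on micro columns and turned into cDNA, per the labels' protocols. The submitters' processing notes name GSNAP and GRCm38. The GSNAP version, annotation, counting rule and use of strand are not given in the sources used here. As deposited by the authors, the data are 1 table of log2 values for 17775 genes in 30 libraries. Libraries shared values at the top ranks, as quantile normalization gives. Gcg, Ins1 and Rn18s-rs5 had 22.565 wherever they ranked 1 and 20.539 wherever they ranked 2. The header names of the table were matched to the sample titles, and 0 columns were left unmapped. Depth could not be recovered from these values, so no count test was run.

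The test took genes that reached 5 in 4 or more libraries (16633 kept, 1142 removed). Group means of all 30 libraries were fitted in limma 3.58.1 (R 4.3.3), whose empirical Bayes step used the trend and robust options. The 10 pairwise contrasts and the interaction had two-sided tests, Benjamini-Hochberg adjusted across the genes of a contrast, and calls were made at 0.05. Errors of differences are standard errors and intervals are 95%. Gene positions come from GENCODE M21 and promoters from RefSeq. Python 3.11.15 with pandas 2.3.3, numpy 2.4.6 and matplotlib 3.10.9 made tables and figures.

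The 7 genes, the lists and the doubted libraries were chosen with earlier results of these data known. The lists hold granule cargo, prohormone processing, granule biogenesis and membrane, and regulators, plus cell type markers. Named genes are the 7, up to 3 called genes per list with the largest difference in beta, alpha Pdx1 and alpha Pdx1 DT against alpha (or up to 2 with the lowest adjusted p where none was called), and the 3 tested genes most correlated with each of the 7. Resp18, Nucb2 and the list genes called in alpha DT were named after their values were seen. Alternatives covered the filter, an offset, rescaling, the variance model, library weights, an Rn18s-rs5 covariate, fits of the compared groups alone, the 5 doubted libraries and each library in turn.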

Additional observations from a re-analysis of the deposited data

Results flagged for a closer look

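Each granule gene in each group gave 35 sets of 4 to 8 libraries, and in 2 of them a single library lay far from the rest by Dixon's gap test. Chance flags about 1 in 20 groups. Scg2 was 16.66 in the library labelled alpha 8, the library in which Pdx1 (11.23) and Ins2 (19.27) also stood above the other alpha libraries. Ptprn2 was 14.15 in the library labelled alpha 7, which was the lowest of the 8 alpha libraries. Without alpha 7, Ptprn2 and Chgb passed the threshold in alpha DT against alpha, with differences of -0.56 (limma adjusted p = 0.0302) and -0.90 (0.0397).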

How the results depend on the processing

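No paired analysis was possible because the labels carry no replicate numbers. The 27 calls of a granule gene in a comparison kept their direction in all 1053 recomputed values, and 993 of these stayed past the threshold. Under every alternative 15 of 27 calls held: the 5 of beta against alpha, Scg2 of alpha Pdx1 against alpha, Chga, Chgb, Scg2, Scg3 and Vgf of alpha DT against beta, Chga of alpha Pdx1 against beta, and Chga, Scg3 and Vgf of alpha Pdx1 DT against beta.

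The number of the 7 genes called moved as follows, first where it moved by more than 1.5 times. The causes were not tested. In alpha DT against alpha (2 in the report) it was 1 with no trend and no robust variances, 1 with the Rn18s-rs5 covariate, 1 with only the groups compared and 0 with array weights, and 1 to 4 with a library left out. In alpha Pdx1 against alpha (1) it was 3 with array weights and 3 without the doubted libraries, and 1 to 2 with a library left out. In alpha Pdx1 DT against alpha (2) it was 1 without trend, 1 with weights, 0 with the covariate and 0 with only the groups compared, and 0 to 2 with a library left out. In alpha Pdx1 DT against alpha Pdx1 (0) it was 1 with an offset of 32, 2 with weights and 1 with only the groups compared, and 0 to 2 with a library left out. In alpha Pdx1 DT against alpha DT (1) it was 2 with the offset, 2 without the doubted libraries, and 0 without trend, with weights or with only the groups compared, and 0 to 2 with a library left out. In alpha Pdx1 against alpha DT (5) it was 0 with the covariate. In alpha Pdx1 against beta (1) it was 3 with weights and 2 without the doubted libraries, and 1 to 2 with a library left out. Apart from leaving out 1 library, the smaller moves were 4 in alpha Pdx1 against alpha DT with weights and with only the groups compared, 6 in beta against alpha (5) with weights and without the doubted libraries, and, in alpha Pdx1 DT against beta (4), 6 with weights, 5 without the doubted libraries and 5 with only the groups compared.

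Counts over all genes moved by more than 1.5 times in most comparisons. Over the alternatives other than leaving out 1 library they ran from 45 to 540 (543 in the main model) in alpha DT, from 114 to 3110 (721) in alpha Pdx1 and from 0 to 3519 (1299) in alpha Pdx1 DT against alpha. They ran from 0 to 3769 (1534) in alpha Pdx1 DT against alpha Pdx1, from 0 to 950 (349) against alpha DT, and from 333 to 2866 (2830) in alpha Pdx1 against alpha DT. Against beta they ran from 1907 to 9323 (5464) in alpha Pdx1 and from 4029 to 6881 (4371) in alpha Pdx1 DT, in beta against alpha from 5283 to 9375 (5734), and in the interaction from 0 to 1 (0). Leaving out 1 library gave 306 to 1080, 300 to 984 and 307 to 3477 in the first 3, 563 to 2558 against alpha Pdx1 and 138 to 931 against alpha DT. Quantile normalization limits what the top-ranked granins can show, and read depth is unknown.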

Other observations

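The other granule genes were also compared between alpha Pdx1 and beta, where Chga was the granin called, and the genes below were named after their values were seen. Of 22 genes of granule biogenesis and membrane 10 were lower in alpha Pdx1 and none was higher: Sytl4 had a mean of 5.05 against 13.51 in beta (difference -8.46 ± 0.57 SE, limma adjusted p = 7.41e-13), Slc18a1 5.96 against 8.33, and Slc30a8, the granule zinc transporter, 14.77 against 15.47 (-0.70 ± 0.21, 0.0113). Of 9 processing genes 5 were higher and 3 lower. Pcsk1 stood at 7.16 against 13.85 (-6.69 ± 0.53, limma adjusted p = 4.38e-11), while Cpe (18.67 against 16.49) and Pam (14.85 against 13.59) were higher. Of 9 cargo genes 2 were higher and 2 lower: Scg5 (15.54 against 14.07) and Resp18 (16.93 against 15.32) were higher, and Ucn3 (8.01 against 14.90) and Npy (2.61 against 9.01) were lower. These shares stand beside the 32.9% of all genes called in the same comparison.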
